A study of Mus musculus with 4 samples.

Results

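The genes described here are 9 cell-surface or secreted signals that restrain T cells, NK cells or phagocytes: Cd274 (PD-L1), Pdcd1lg2 (PD-L2), Cd47, its receptor gene Sirpa, Pvr (CD155), Nectin2 (CD112), Ceacam1, Lgals9 (galectin-9) and Vsir (VISTA). They were taken by symbol, 9 of 32285 genes in the expression tables, with no use of their measured values. Their RNA and the open chromatin over their genes were followed in CT26 tumours. CT26 is a mouse line derived from a BALB/c colon carcinoma. Cells with intact Sun1 (Sun1_WT) or with Sun1 knocked out (Sun1_KO) were placed under the skin of BALB/c hosts, in the right flank, and tumours were taken on day 14 and dissociated with enzymes. The label Sun1_KO applies to the injected cells, since the host mice of both groups were BALB/c. The sources used here do not give the age or sex of the mice, how many tumours entered a library, how Sun1 was disrupted or whether the knocked-out cells were 1 clone. The kit reads RNA and accessible chromatin from the same nucleus, and there was 1 library per genotype for expression and 1 for accessibility. No difference between genotypes could therefore be tested, and every interval below is a 95% interval for counting error only.

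PD-L1 and PD-L2 bind PD-1 on T cells and dampen their activation. CD47 is a "do not eat me" signal that binds SIRPα on macrophages and other phagocytes. CD155 and CD112 are shared between the activating receptor CD226 and inhibitory receptors such as TIGIT, CEACAM1 and galectin-9 are both ligands of TIM-3, and VISTA is an inhibitory molecule found mostly on myeloid cells and T cells. In tumours these genes can be expressed by the cancer cells, by the cells that infiltrate them, or by both.

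Nuclei were assigned to 3 gates by marker genes that include none of the 9: a tumour gate (Hmga2, Igf2bp1, Igf2bp2, Igf2bp3, Lin28b), a myeloid gate (13 genes such as Csf1r, Adgre1 and C1qa) and a lymphoid gate (16 genes of T and NK cells such as Cd3e and Ncr1). The tumour gate held 2438 Sun1_WT and 1401 Sun1_KO nuclei, the myeloid gate 369 and 348, and the lymphoid gate 180 and 207. Median depth was 17144 and 16872 UMIs per nucleus in the tumour gate, 5134 and 4580 in the myeloid gate, and 2975.5 and 2840 in the lymphoid gate. Levels are in CPM, the UMIs of a gene per 1000000 UMIs of the gate and library, mitochondrial genes left out. They were not divided by gene length, so they are compared between gates and libraries and not between genes. Each marker list kept out of the gating was highest in the gate of its name, but none was absent elsewhere. The held-out myeloid list stood at 8195 and 5738 CPM in the myeloid gate against 62.1 and 113.6 in the tumour gate. All 6 of its genes were detected in both. The held-out tumour list stood at 1105 and 1046 CPM in the tumour gate and 186 and 223 in the myeloid gate. In the lymphoid gate that list stood at 440.5 in Sun1_WT and 104.5 in Sun1_KO, so tumour RNA there differed between the libraries. Of the other marker lists, B-cell genes were at or below 1.43 CPM in every gate, and the 5 neutrophil genes together stood at 89.5 and 118 CPM in the myeloid gate. S100a9 and Csf3r were detected there in both libraries and S100a8 in Sun1_KO, while Cxcr2 and Retnlg were at 0 in both. Endothelial genes stood at 243 and 254 CPM in the lymphoid gate and 111 and 147 in the myeloid gate. Fibroblast genes were highest in the tumour gate, at 112 CPM in Sun1_WT and 153 in Sun1_KO. There 70.96% and 77.4% of nuclei held a UMI of them. Their level was 32.7 and 58.99 in the myeloid gate and 61.1 and 19.98 in the lymphoid gate. Dendritic-cell genes stood at 34.2 and 41.4 CPM in the tumour gate. Their level was 19.8 and 34.3 in the myeloid gate and 31.3 and 76.8 in the lymphoid gate. Which cells the fibroblast RNA of the tumour gate came from was not tested.

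Host RNA was more abundant in the Sun1_KO than in the Sun1_WT tumour gate. Xist, which female host cells express, stood at 10.2 CPM in the Sun1_WT and 40.1 in the Sun1_KO tumour gate, against 1614 and 1611 in the myeloid gate. The gate myeloid list stood at 74.8 and 182 CPM in the tumour gate and the gate lymphoid list at 26.0 and 61.9. The tumour gate was therefore also read without the 88 Sun1_WT and 116 Sun1_KO nuclei that held a Xist UMI. This left host RNA in the gate: the held-out myeloid list stood at 53.2 and 65.0 CPM and the held-out lymphoid list at 9.89 and 13.6. A further reading used the 298 and 117 tumour-gate nuclei with no UMI of Xist or of the gate and held-out myeloid and lymphoid lists. They are called nuclei with no host UMI, or with no UMI of other types, below. Fibroblast, endothelial and the remaining marker lists were not used to leave nuclei out. Both readings were added after the data were seen. Mitochondrial genes took 6.95% of UMIs in the Sun1_WT and 11.4% in the Sun1_KO tumour gate, and 12 barcodes occurred in both libraries. Sun1 RNA was 104.6 CPM in the Sun1_WT and 65.6 in the Sun1_KO tumour gate, a log2 ratio of -0.67 (-0.75 to -0.59). Myeloid nuclei held 45.6 and 41.3. The sources used here do not say where the edit lies in Sun1, so RNA that remains does not check the knockout.

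**Figure D1:**
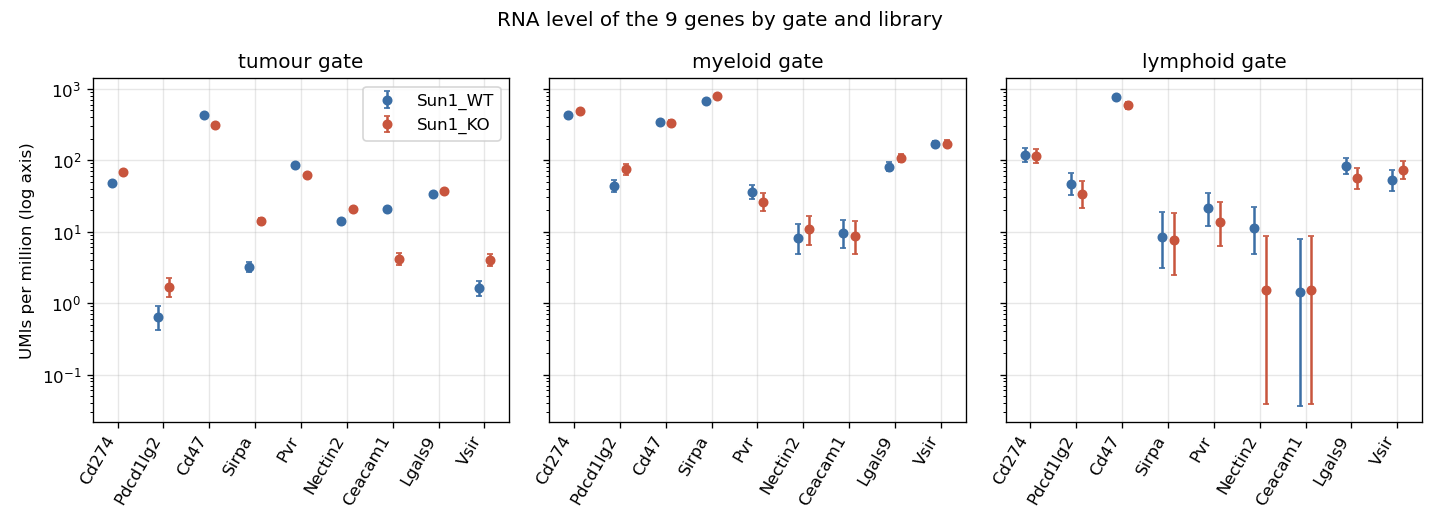
RNA level of the 9 genes (CPM, log axis) in the tumour, myeloid and lymphoid gates, with 1 point per library and exact Poisson intervals. Sirpa, Vsir and Pdcd1lg2 sit far lower in the tumour gate than in the myeloid gate, Pvr sits higher in the tumour gate, and Ceacam1 differs most between the libraries within the tumour gate.

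The genes fell into those read mainly from host cells and those read mainly or also from tumour nuclei. In Sun1_WT, 5 of the 9 were at least 2-fold higher in the myeloid than in the tumour gate, namely Sirpa, Vsir, Pdcd1lg2, Cd274 and Lgals9. In Sun1_KO the same 5 and Ceacam1 passed that size. The share of all genes that passes this size between gates was not computed, so these counts have no background. Sirpa was 208-fold higher in the myeloid gate in Sun1_WT and 56.5-fold in Sun1_KO, Vsir 102-fold and 41.8-fold, and Pdcd1lg2 67.2-fold and 43.4-fold. Over the same pair of gates the held-out myeloid list differed 132-fold and 50.5-fold and Xist 159-fold and 40.2-fold. Pvr was lower in the myeloid than in the tumour gate, by 2.39-fold and 2.31-fold, and Nectin2 by 1.67-fold and 1.87-fold.

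In tumour nuclei, 3 of the 9 genes were at least 1.5-fold higher in Sun1_KO (Sirpa, Pdcd1lg2 and Vsir), 1 was at least 1.5-fold lower (Ceacam1), and 5 lay within that size. Among all 14743 genes with at least 50 UMIs in the gate, 16.5% were that much higher and 10.03% that much lower. The median log2 ratio, Sun1_KO over Sun1_WT, was 0.49 over the 9 genes and 0.17 over all genes. In the myeloid gate 7 of the 9 had enough UMIs, and 1 was higher (Pdcd1lg2) and 0 lower, beside 7.70% and 7.79% of all genes. In the lymphoid gate 5 had enough, and 0 passed in either direction, beside 11.03% and 11.05%. Without the nuclei with Xist, 8 of the 9 could be compared in the tumour gate, with 1 higher (Sirpa) and 1 lower (Ceacam1), beside 12.99% and 10.1% of all genes.

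**Figure D2:**
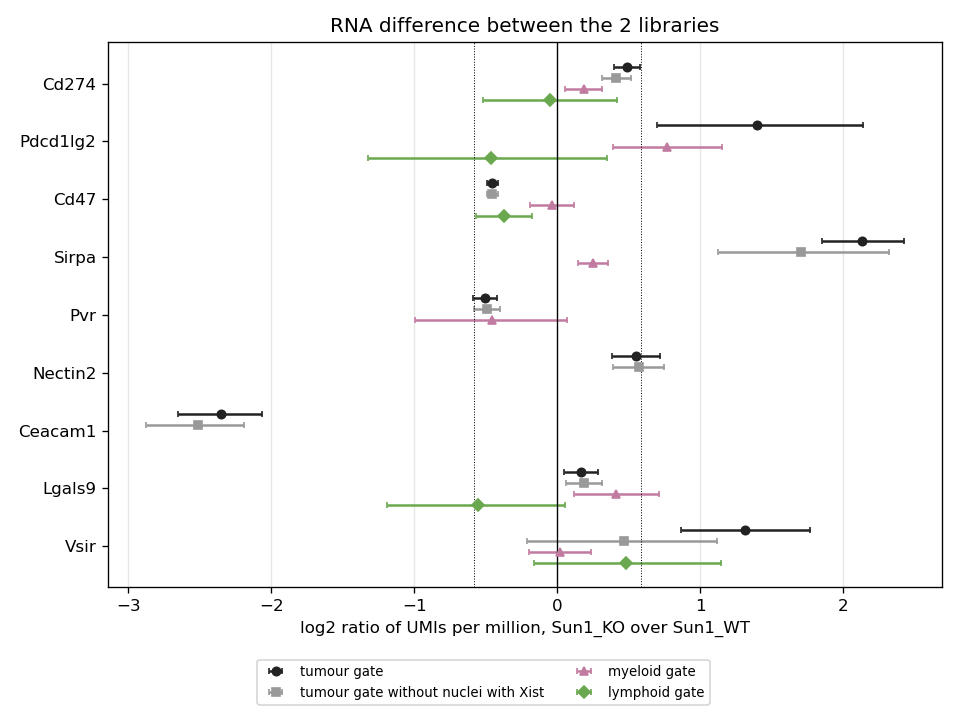
Log2 ratio of RNA, Sun1_KO over Sun1_WT, with exact intervals for counting error, in the 3 gates and in the tumour gate without nuclei that held a Xist UMI. Dotted lines mark 1.5-fold, and genes with fewer than 50 summed UMIs are not drawn. Ceacam1 lies near -2.35 and -2.52 in both tumour readings, while Vsir moves from 1.31 to 0.46.

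Ceacam1, which codes for an adhesion molecule of epithelial cells that also binds TIM-3, gave the largest difference of the 9 in the negative direction. It had 921 UMIs in the Sun1_WT tumour gate and 109 in the Sun1_KO tumour gate, or 21.0 (19.7 to 22.4) and 4.10 (3.37 to 4.95) CPM. The log2 ratio was -2.35 (-2.66 to -2.07), a level 5.10-fold lower in Sun1_KO, at the 0.224th percentile of all genes compared. At least 1 UMI was seen in 20.8% of Sun1_WT and 6.64% of Sun1_KO tumour nuclei at nearly equal median depth. Without nuclei with Xist the levels were 20.7 and 3.59, and in nuclei with no host UMI they were 16.4 (68 UMIs) and 2.44 (4 UMIs). With each nucleus thinned to 1000 UMIs the log2 ratio was -1.22. Its close relative Ceacam2, whose reads the counting may not fully separate, had 76 and 48 UMIs.

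The difference in Ceacam1 ran through most groups of tumour nuclei. Clustering of both libraries together gave 10 clusters with at least 30 nuclei from each library in which tumour-gate nuclei were the largest gated class, and Ceacam1 was lower in Sun1_KO in 9 of them. Clusters 3 and 6 were mixed: 27.7% and 44.4% of their Sun1_WT and 45.4% and 54.7% of their Sun1_KO nuclei were in the tumour gate, and cluster 3 held 29 and 24 myeloid nuclei. In the other 8 clusters, where most nuclei of each library were in the tumour gate, Ceacam1 was lower in 7. That reading was added after the data were seen. Its level was 4.03 to 28.2 CPM in Sun1_WT and 0 to 8.86 in Sun1_KO over these 8. The Sun1_WT clusters were thus not uniform: cluster 2, with 566 nuclei, stood at 6.16, and cluster 11 at 4.03, within the Sun1_KO range. Cluster 2 was the exception, with 7.17 CPM in Sun1_KO. Cluster 11 stood at 3.01 in Sun1_KO, from 3 UMIs in each library. Among host nuclei Ceacam1 had 22 and 16 UMIs in the myeloid gate and 1 and 1 in the lymphoid gate, too few to compare.

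**Figure D3:**
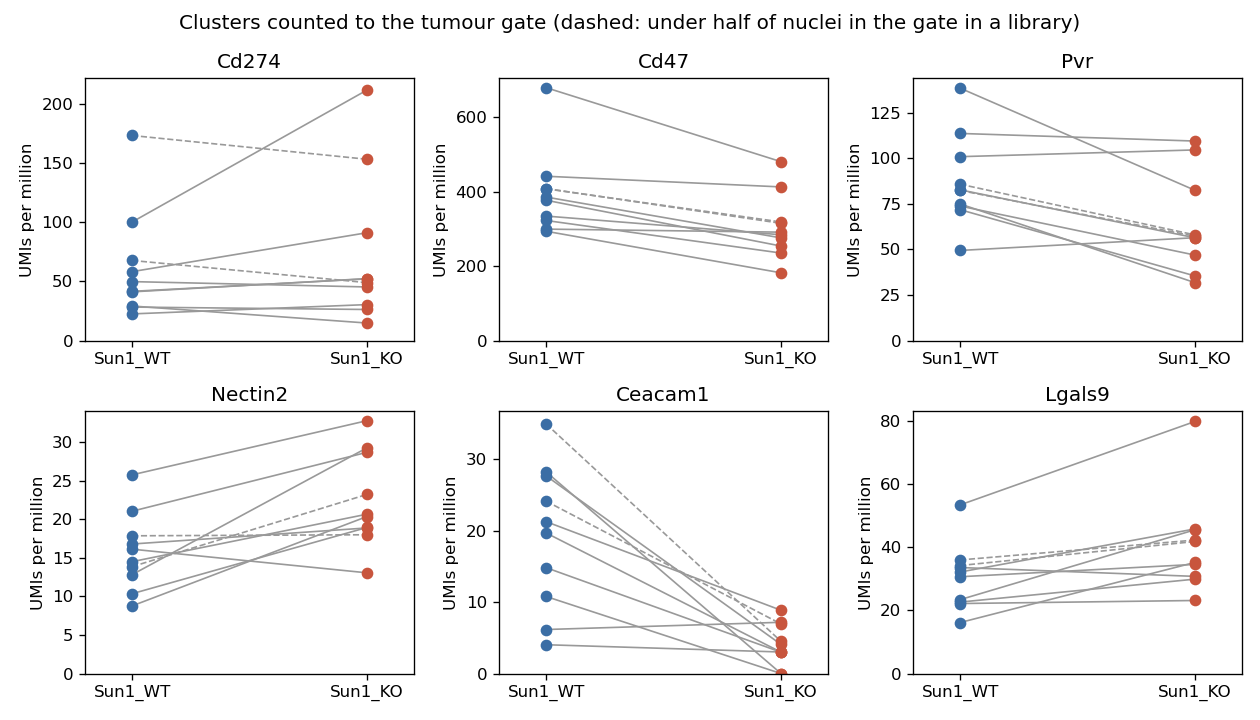
RNA level (CPM) of 6 genes in the 10 clusters counted to the tumour gate with at least 30 nuclei in each library, with 1 line per cluster, dashed for clusters 3 and 6. Cd47 is lower in Sun1_KO in all 10 clusters and Ceacam1 in 9, whereas Cd274 is higher in 5 and lower in 5, clusters 3 and 6 included. Clusters were built from the same RNA counts, so the lines describe and do not test.

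Chromatin at the start of Ceacam1 differed in the same direction. The gene (chr7:25461702-25477647, minus strand, mm10) had 1 region called in both libraries within 1 kb, at chr7:25477200-25478125, over its start. The 300 bases from 250 before to 50 after that start, a stretch that lies inside this region, are shown here together with those of Cd274 and Lgals9, the 2 members that differed most between interferon-high and other tumour nuclei among those with at least 100 UMIs there. They come from RefSeq (GRCm38.p6), which held promoters for 7 of the 9 genes, and are written 5′ to 3′ along the gene.
Ceacam1, chr7:25477576-25477875, minus strand: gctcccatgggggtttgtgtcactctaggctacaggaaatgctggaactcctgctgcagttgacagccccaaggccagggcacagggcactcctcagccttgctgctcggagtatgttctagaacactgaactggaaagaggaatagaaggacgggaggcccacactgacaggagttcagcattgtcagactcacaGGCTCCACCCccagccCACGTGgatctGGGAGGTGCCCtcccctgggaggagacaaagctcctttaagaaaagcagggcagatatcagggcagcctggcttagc
Cd274, chr19:29367188-29367487, plus strand: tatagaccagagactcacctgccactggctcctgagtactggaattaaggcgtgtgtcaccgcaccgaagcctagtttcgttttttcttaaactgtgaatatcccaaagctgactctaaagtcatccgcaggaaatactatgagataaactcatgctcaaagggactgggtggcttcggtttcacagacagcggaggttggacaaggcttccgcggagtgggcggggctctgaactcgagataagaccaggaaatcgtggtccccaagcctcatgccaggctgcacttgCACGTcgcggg
Lgals9, chr11:78984875-78985174, minus strand: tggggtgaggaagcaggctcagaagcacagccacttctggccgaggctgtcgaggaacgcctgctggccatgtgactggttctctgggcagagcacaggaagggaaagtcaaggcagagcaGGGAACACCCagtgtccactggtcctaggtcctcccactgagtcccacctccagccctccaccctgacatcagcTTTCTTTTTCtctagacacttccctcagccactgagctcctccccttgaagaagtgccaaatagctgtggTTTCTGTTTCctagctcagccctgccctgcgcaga
Capitals mark exact matches, on either strand, to any of 5 motifs: a pair of GAAA blocks separated by any 2 bases (like the interferon-stimulated response element, ISRE), TTCNNNGAA (the GAS element), GGG and CC separated by any 5 bases (like an NF-kB site), TGANTCA (AP-1) and ACGTG (the core of the hypoxia response element). Among 32544 promoters of this length they occur in 3.45%, 8.33%, 51.0%, 7.79% and 19.7%. Ceacam1 held 3 matches to the NF-kB-like motif, of which 2 overlap, and overlapping matches to ACGTG on both strands. Lgals9 held the ISRE-like motif at 2 places, from 55 to 46 bases before the start and from 15 to 24 bases after it, and the NF-kB-like motif at 1 place on both strands. Cd274 held ACGTG at 1 place and no match to the other 4 in this window. A match is a description of letters and not of a bound site.

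The Ceacam1 start region was open, meaning that it had at least 1 count, in 35.2% (33.3 to 37.2) of Sun1_WT and 29.1% (26.7 to 31.5) of Sun1_KO tumour nuclei. The Sun1_KO nuclei were the deeper ones, with a median of 92414 accessibility counts against 75664.5. In CPM of accessibility counts it stood at 12.8 and 7.92, a log2 ratio of -0.69, at the 1.18th percentile of gene windows (a gene and 1 kb on either side). Of all 18890 gene windows compared, 1.53% stood lower in Sun1_KO by 1.5-fold or more, and 5.08% stood higher. The Ceacam1 window held only 1 region, whereas other windows could sum several. Of 113724 single regions, 4.51% stood lower by 1.5-fold or more. With each nucleus scored only as open or not the log2 ratio was -0.50. The 175 regions within 1 Mb of Ceacam1 together gave -0.04. Among myeloid nuclei the same region was open in 18.4% of Sun1_WT and 21.6% of Sun1_KO nuclei, with a log2 ratio of 0.38 from 167 and 189 counts.

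Cd47, whose protein is bound by SIRPα, was lower in Sun1_KO tumour nuclei throughout. It had 18657 and 8253 UMIs there, or 425 and 311 CPM, a log2 ratio of -0.45 (-0.49 to -0.42). The difference had nearly the same size without nuclei with Xist (426 and 312) and in nuclei with no host UMI (437 and 326). It was below 1.5-fold, and passed that size only where totals were scaled by TMM or median-ratio factors, at -0.69 with either. The lymphoid gate held 753 (690 to 820) and 582 (525 to 644) CPM, and its make-up differed, with 78 T and 91 NK nuclei in Sun1_WT and 112 and 77 in Sun1_KO. Within T nuclei Cd47 stood at 546 (462 to 641) and 473 (409 to 544) and within NK nuclei at 929 (836 to 1031) and 780 (660.0 to 916), with overlapping intervals in each. Myeloid levels were 344 and 335, with overlapping intervals. Its start region (chr16:49855104-49856018) was open in 83.3% and 84.8% of tumour nuclei, and the log2 ratio over the 10 regions of the gene was -0.01. Of these, the region at chr16:49905183-49906134, about 50 kb inside the gene, stood lower in Sun1_KO at -0.65, beside 4.51% of all regions at least 1.5-fold lower in the tumour gate.

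Sirpa, the receptor for CD47 on phagocytes, was read from the myeloid gate. Its level there was 672 (639 to 706) in Sun1_WT and 800 (760 to 841) CPM in Sun1_KO, a log2 ratio of 0.25 (0.15 to 0.35), and 87.3% and 87.9% of myeloid nuclei held a UMI. In myeloid nuclei with no UMI of the other gate lists the intervals overlapped, at 914 (835 to 998) and 939 (848 to 1037) CPM. The lymphoid gate held 6 and 5 UMIs. In the tumour gate 141 and 376 UMIs gave 3.21 and 14.1 CPM, a log2 ratio of 2.14 (1.86 to 2.43). Nuclei without Xist held 39 and 68 UMIs, or 0.94 and 3.09 CPM, and nuclei with no host UMI held 5 and 2, or 1.21 and 1.22 CPM. The chromatin followed the RNA between gates. The region at chr2:129595467-129596408 inside Sirpa was open in 45.3% and 45.7% of myeloid nuclei but 2.50% and 5.0% of tumour nuclei, a log2 ratio between gates of 6.14 and 5.60. Sirpb1a, Sirpb1b and Sirpb1c, relatives of Sirpa, were also read mainly from myeloid nuclei, with 143 to 314 UMIs each there.

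Cd274 was present in tumour and host nuclei. Its level was 47.7 (45.7 to 49.8) in the Sun1_WT and 67.1 (64.0 to 70.3) CPM in the Sun1_KO tumour gate, a log2 ratio of 0.49 (0.40 to 0.58). Myeloid nuclei held 432 and 491, or 9.05-fold and 7.32-fold above the tumour gate, and the myeloid log2 ratio between genotypes was 0.19 (0.06 to 0.32), or -0.15 (-0.46 to 0.15) in myeloid nuclei with no UMI of the other gate lists. The lymphoid gate stood between, at 119 and 115 with overlapping intervals. The tumour difference was sensitive to which nuclei were read. It was 0.41 (0.31 to 0.52) without nuclei with Xist, 0.25 with TMM scaling, and 0.04 in nuclei with no host UMI, where 197 and 80 UMIs gave 47.5 (41.1 to 54.6) and 48.8 (38.7 to 60.7) CPM. Over the 8 clusters that were mostly tumour-gate nuclei Cd274 was higher in Sun1_KO in 5 and lower in 3. How much the host RNA of the gate contributes was not tested.

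Cd274 differed far more with the interferon state of a tumour nucleus than with the genotype. Tumour nuclei of both libraries were ranked by the summed share of 12 interferon-response genes (such as Gbp2, Irgm1 and Tap1, none of them a member), and the highest 20% were set against the rest. This put 417 of 2438 Sun1_WT and 351 of 1401 Sun1_KO nuclei in the interferon-high part. Cd274 stood at 148 against 28.3 CPM in Sun1_WT, 5.24-fold (4.81 to 5.72), and at 157 against 42.1 in Sun1_KO, 3.74-fold (3.40 to 4.11). In nuclei with no host UMI the folds were 4.75 (3.55 to 6.35) and 4.46 (2.81 to 7.16). Median depth differed little between the parts (16872 and 17194 UMIs in Sun1_WT), and the held-out myeloid list stood at 58.8 and 62.7 CPM in Sun1_WT and 115 and 113 in Sun1_KO. Within the interferon-high part the Sun1_WT and Sun1_KO intervals of Cd274 overlapped (139 to 157 and 147 to 168), while in the rest they did not (26.6 to 30.04 and 39.3 to 44.9). In the rest of the nuclei with no host UMI they overlapped as well, at 29.4 (24.0 to 35.7) and 27.5 (19.1 to 38.2) CPM.

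The other genes differed less along this axis. Lgals9 was 1.89-fold (1.68 to 2.12) higher in interferon-high nuclei in Sun1_WT and 1.55-fold (1.35 to 1.78) in Sun1_KO. In nuclei with no host UMI it was 2.12-fold (1.40 to 3.11) in Sun1_WT but 0.86-fold (0.40 to 1.59) in Sun1_KO, from 12 and 50 UMIs. For Vsir the log2 ratio of interferon-high over other nuclei was 1.59 (0.82 to 2.30) in Sun1_WT, from 26 and 45 UMIs, and 0.44 (-0.25 to 1.05) in Sun1_KO, and in nuclei with no host UMI all 6 of its Sun1_WT UMIs lay in the rest. Cd47 was 1.30-fold and 1.33-fold higher, and Pvr lower, at 0.80 and 0.79 of its level in the rest. Ceacam1 stood at 13.8 against 22.4 CPM in Sun1_WT, while in Sun1_KO it was 4.15 and 4.09, the lower level in both parts. In interferon-high nuclei with no host UMI the levels were close, with wide intervals. They were 5.88 (1.60 to 15.1, 4 UMIs) in Sun1_WT and 5.46 (0.66 to 19.7, 2 UMIs) in Sun1_KO. In the rest of those nuclei Ceacam1 stood at 18.4 (14.2 to 23.6) and 1.57 (0.19 to 5.67). Nectin2 intervals overlapped between the parts in both libraries. Chromatin at the Cd274 start of the RefSeq promoter above (chr19:29366870-29367747) was open in 65.7% (60.9 to 70.3) of interferon-high against 56.4% (54.2 to 58.6) of other Sun1_WT nuclei, and in 68.95% (63.8 to 73.7) against 59.9% (56.9 to 62.9) in Sun1_KO.

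**Figure D4:**
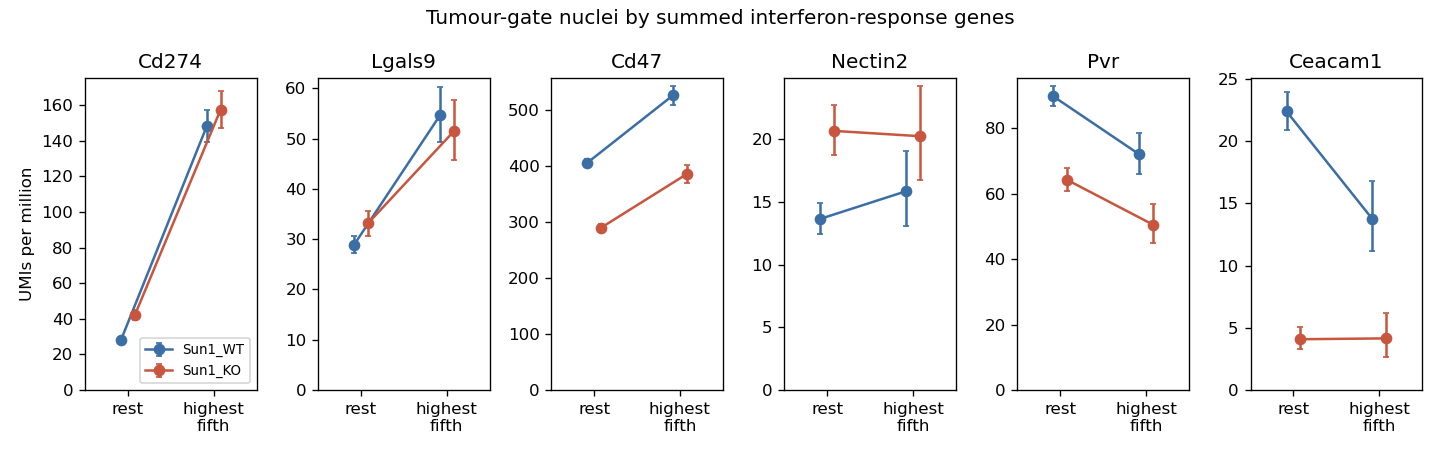
RNA level (CPM, exact Poisson intervals) of 6 genes in the 20% of tumour nuclei with the highest summed interferon-response genes and in the rest, by library. Cd274 goes from 28.3 to 148 in Sun1_WT and from 42.1 to 157 in Sun1_KO, and Ceacam1 stays near 4 in both parts of Sun1_KO.

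Pdcd1lg2, the second ligand of PD-1, was a host gene in these data. In the myeloid gate it had 101 and 138 UMIs, or 43.4 (35.4 to 52.8) and 74.0 (62.2 to 87.4) CPM, a log2 ratio of 0.77 (0.39 to 1.15) in favour of Sun1_KO. This size was at least 1.5-fold, but it was 0.56 when 90% of marker UMIs had to come from 1 list and 0.45 when gates were set by cluster. In the lymphoid gate it stood at 46.9 and 33.8 with overlapping intervals. Its 28 and 45 UMIs in the tumour gate (0.64 and 1.69 CPM) included 11 from 1 Sun1_KO nucleus, and 18 and 8 remained without nuclei with Xist. Cd274 and Pdcd1lg2 lie side by side on chromosome 19, and both had regions inside the gene that were open mainly in myeloid nuclei. At chr19:29384694-29385590 in Cd274, 19.2% and 21.3% of myeloid nuclei were open against 3.69% and 5.50% of tumour nuclei. At chr19:29430687-29431587 in Pdcd1lg2 the shares were 32.8% and 28.4% against 2.30% and 4.14%, although tumour nuclei had the higher counts per nucleus. Of the 8 regions of Pdcd1lg2, the one at chr19:29412504-29413363 went the other way, open in 29.9% and 37.5% of tumour but 5.15% and 4.60% of myeloid nuclei.

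Pvr and Nectin2, the ligands shared by CD226 and TIGIT, stood higher in the tumour than in the myeloid gate and differed between genotypes in opposite directions. Neither was confined to tumour nuclei. For Nectin2 the myeloid gate held only 19 and 20 UMIs and the lymphoid gate 8 and 1. Its log2 ratio, lymphoid over tumour, was -0.22 (-1.52 to 0.69) in Sun1_WT and -3.16 (-9.05 to -1.26) in Sun1_KO. Pvr had 86.8 (84.1 to 89.6) and 61.2 (58.3 to 64.3) CPM in the tumour gate, a log2 ratio of -0.50 (-0.59 to -0.42), and -0.49 without nuclei with Xist. It was lower in Sun1_KO in 6 of the 8 clusters that were mostly tumour-gate nuclei. Nectin2 had 14.0 (12.9 to 15.2) and 20.6 (18.9 to 22.4) CPM, a log2 ratio of 0.55 (0.39 to 0.72), or 0.57 without nuclei with Xist, and was higher in 7 of the 8 clusters. Both lay within 1.5-fold, but Nectin2 passed that size when at least 10 gate-marker UMIs were required (0.59), and Pvr passed that size with TMM scaling (-0.74), with median-ratio scaling (-0.74) and with nuclei thinned to 1000 UMIs (-0.64). The accessibility log2 ratio of either gene window was -0.05. The regions with the largest difference between gates were as follows: a region inside Pvr (chr7:19910991-19911758) was open in 58.7% and 60.2% of tumour but 6.78% and 6.32% of myeloid nuclei, and one inside Nectin2 (chr7:19740948-19741808) in 37.8% and 39.5% against 3.79% and 1.44%. The whole Pvr window had a log2 ratio, myeloid over tumour, of -0.71 and -0.90, but the Nectin2 window, with 2 further regions, had 0.03 and 0.14.

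Lgals9, the gene of galectin-9, had the smallest difference between genotypes of the set in the tumour gate. It stood at 33.1 (31.4 to 34.8) and 37.1 (34.8 to 39.5) CPM, a log2 ratio of 0.17 (0.05 to 0.28). This was the same to 2 decimals as the median of all genes, and -0.07 with TMM scaling, which lowers all tumour ratios by 0.24. Lgals9 was still higher in Sun1_KO in 7 of the 8 clusters that were mostly tumour-gate nuclei. Myeloid levels were 80.4 and 107, a log2 ratio of 0.42 (0.12 to 0.71). Lymphoid levels were 83.8 and 56.9 with overlapping intervals, and NK nuclei exceeded T nuclei by 1.83-fold in Sun1_WT and 2.71-fold in Sun1_KO. Cd47 was likewise higher in NK than in T nuclei, by 1.70-fold and 1.65-fold. The region at chr11:78982605-78983476, near the start of Lgals9, was open in 31.4% and 29.6% of myeloid and 5.41% and 6.995% of tumour nuclei.

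Vsir was a myeloid and lymphoid gene. It stood at 166 (150 to 184) and 169 (151 to 189) CPM in the myeloid gate and at 52.6 and 73.8 in the lymphoid gate, with overlapping intervals in each and a myeloid log2 ratio of 0.02 (-0.20 to 0.24). Within the myeloid gate it was 1.35-fold and 1.41-fold higher in nuclei above the median for the summed C1q genes, which mark tissue macrophages. Those nuclei were also deeper, with a median of 6955 against 3502 UMIs in Sun1_WT and 6881 against 2933 in Sun1_KO. Their held-out myeloid list was higher too, at 9508 against 6116 CPM in Sun1_WT and 6754 against 4169 in Sun1_KO. In the tumour gate 71 and 107 UMIs gave a log2 ratio of 1.31 (0.87 to 1.77), which became 0.46 (-0.21 to 1.12) without nuclei with Xist, and nuclei with no host UMI held 6 and 0. The start region (chr10:60346594-60347550) was open in 49.1% (43.8 to 54.3) and 36.5% (31.4 to 41.8) of myeloid nuclei and in 17.4% and 18.7% of tumour nuclei. The log2 ratio over all 20 regions of the gene was -0.03 in the myeloid gate.

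**Figure D5:**
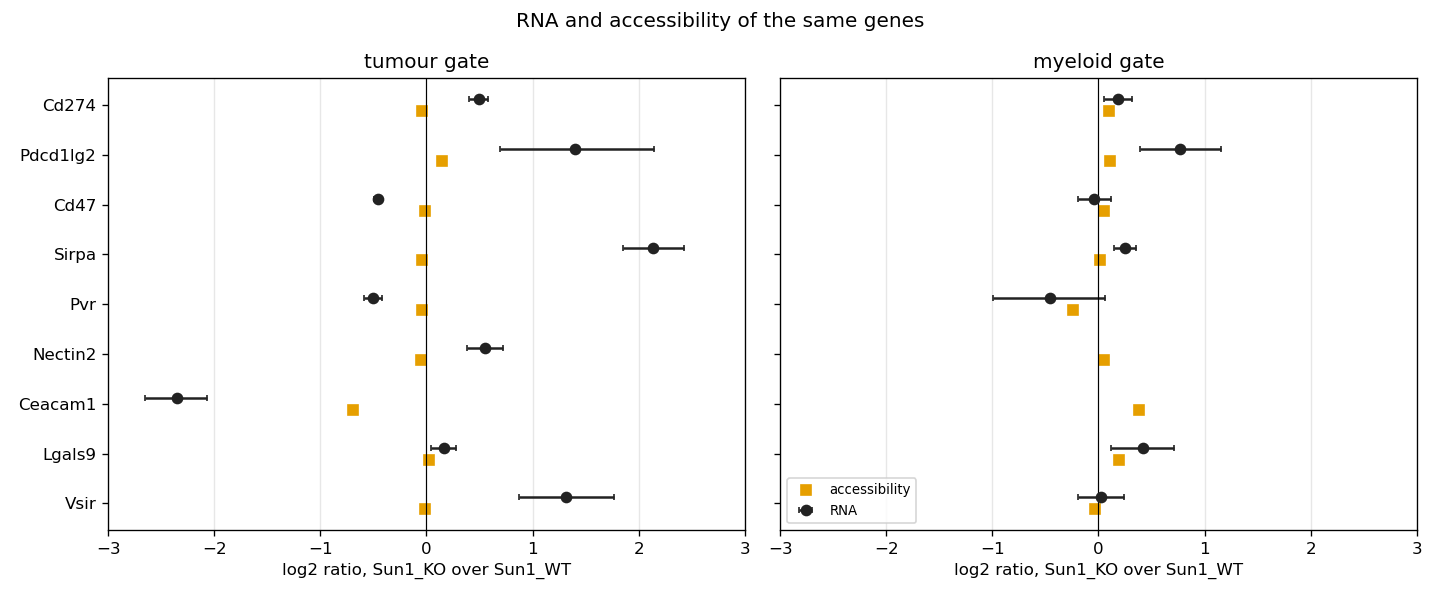
Log2 ratio, Sun1_KO over Sun1_WT, of RNA (with exact intervals for counting error) and of accessibility within 1 kb of the gene, in the tumour and myeloid gates. Accessibility lies between -0.05 and 0.15 for the 8 genes other than Ceacam1 in the tumour gate, and Ceacam1 is at -0.69. Genes with fewer than 50 summed UMIs have no RNA point.

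Genes with the most similar pattern were sought over 31 points, each a cluster of at least 30 nuclei in 1 library, among 12677 genes. The points share libraries and depth, so the correlations describe. Cd274 was closest to Sppl2a (Pearson r 0.95), Gna13 and Trafd1. Lgals9 was closest to Dtx3l (0.90), Sptlc2 and Sp110. Pdcd1lg2 and Vsir were both close to Il10ra, the gene of an interleukin-10 receptor chain, and to each other (0.96). Sirpa was closest to Tbc1d9, Lpcat2 and Slc8a1 (0.99 each), Cd47 to Chst12 (0.82), Ezh1 and Zfp182, Pvr to Tnfrsf23 (0.92), Rassf8 and Vldlr, and Nectin2 to Pomt2 (0.88), Pdlim7 and Amotl2. Ceacam1 had no close match, the highest being Runx2os2 (0.74), Gm48597 and Gm36536.

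Receptors of the same pathways were compared in the 3 gates. In the lymphoid gate 11 of 18 receptors had enough UMIs, 3 were at least 1.5-fold higher in Sun1_KO and 1 was lower, beside 11.03% and 11.05% of all genes. Pdcd1, the gene of PD-1, stood at 105 and 197 CPM, a log2 ratio of 0.90 (0.48 to 1.34). Cd226, the activating receptor for CD155, was 0.79 (0.51 to 1.09) and Lag3 0.68 (0.24 to 1.14) higher. The T share of the gate was larger in Sun1_KO, as given above. Within T nuclei the intervals overlapped for Pdcd1 (269 and 298 CPM), Cd226 (364 and 403) and Lag3 (182 and 228), while within NK nuclei Cd226 stood at 140 (105 to 182) and 440 (351 to 545). Lrp1, the receptor for calreticulin on phagocytes, was lower by this measure, at -1.95 in the lymphoid and -0.82 (-0.95 to -0.70) in the myeloid gate, where 6 receptors could be compared and 0 were higher. Lrp1 stood at 138 and 41.2 CPM in T and 197 and 36.7 in NK nuclei. The held-out myeloid list was also lower in the Sun1_KO lymphoid gate, at 925 and 444 CPM. That list stood at 342 and 197 in T and 1354 and 932 in NK nuclei. The held-out tumour list was lower in the gate as well, at 440.5 and 104.5, and Lrp1 stood at 447 and 446 in the tumour gate. The part of either list's RNA in the lymphoid Lrp1 value was not tested. In the tumour gate 13 receptors could be compared, 10 were higher (among them Lilrb4a, Cd226 and Pirb) and 2 lower (Ctla4 and Tigit), beside 16.5% and 10.03% of all genes. Lilrb4a stood at 2.62 and 9.37 CPM and Pirb at 0.73 and 2.86 there, against 709 and 714 and 184 and 179 in the myeloid gate. Without nuclei with Xist 6 of 9 were higher and 2 lower, beside 12.99% and 10.1%. That reading still held RNA of the held-out myeloid and lymphoid lists, as given above, and the part of host RNA in these receptor counts was not tested.

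Among 20 other ligands of these pathways, 12 could be compared in the tumour gate, 3 were higher (Cd86, Fgl2 and Vtcn1) and 2 lower, beside 16.5% and 10.03% of all genes. Cd86 stood at 1.25 and 6.43 CPM and Fgl2 at 3.01 and 12.6, log2 ratios of 2.35 (1.91 to 2.83) and 2.06 (1.77 to 2.37). In the myeloid gate Cd86 stood at 309 and 336 CPM and Fgl2 at 349 and 476. Without nuclei with Xist 11 ligands could be compared, with 2 higher and 2 lower, beside 12.99% and 10.1% of all genes. Cd86 then had 13 and 31 UMIs, too few to compare, and Fgl2 had 68 and 136. How much host RNA contributed to either gene was not tested. Lgals3, the gene of galectin-3, stood at 458 and 188 CPM, a log2 ratio of -1.28 (-1.33 to -1.24). Calr, whose product calreticulin promotes engulfment when exposed on the cell surface, stood at 479 and 301, a log2 ratio of -0.67 (-0.71 to -0.63). Lgals3 was lower in all 3 gates, with -0.64 in the myeloid and -1.43 in the lymphoid gate. The held-out tumour list was also lower in the Sun1_KO lymphoid gate, as given above, and its part in the lymphoid values was not tested. The myeloid gate had 12 comparable ligands, of which Icosl was higher and Lgals3 lower, beside 7.70% and 7.79% of all genes. The lymphoid gate had 7, of which Cd200 was higher and Lgals3, Fgl2 and Calr were lower, beside 11.03% and 11.05%. Of the 20 signalling genes and regulators, 19, 18 and 14 could be compared in the tumour, myeloid and lymphoid gates, against the same shares of all genes. In the tumour gate Nfkb1 (221 and 333 CPM, log2 ratio 0.59) and Ptpn6 (0.80) were higher and 0 lower, and without nuclei with Xist 0 passed 1.5-fold in either direction. In the myeloid gate 0 passed. In the lymphoid gate Ptpn11 (0.69) and Irf9 (0.60, with an interval of -0.01 to 1.24) were higher and Cmtm7 lower (-1.02). Irf9 was named after its value was seen.

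The authors' deposited table, which lists 10156 genes, held 6 of the 9 members. Its log2 fold changes run in the direction of Sun1_KO over Sun1_WT, judged from Ift81 and Cask, which stood at 3.20 and -1.37 in the authors' deposited table and at 2.74 and -1.62 in the counts summed here over all kept nuclei. In the authors' deposited table Cd274 was at 0.94 (SE 0.13, DESeq2 adjusted p 3.4e-13), Nectin2 at 0.87 and Lgals9 at 0.57. Cd47 was at -0.14 (DESeq2 adjusted p 0.0082) and Pvr at -0.13 in the authors' deposited table. Ceacam1 was at 0.06 with a DESeq2 adjusted p of 0.79 in the authors' deposited table. Summed over all kept nuclei, the counts gave 993 and 138 UMIs for Ceacam1 and a log2 ratio of -2.14 (-2.42 to -1.89), and for Cd274 0.49. The sources used here do not say which nuclei entered that table, and each genotype had 1 library, so its p-values do not cover differences between tumours.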

How the data were processed

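RNA and chromatin accessibility were measured in the same nuclei with a 10x Multiome kit, in 1 library of each kind per genotype. Per the submitters' processing notes the build was mm10, and the tools named are Seurat, Signac, Cell Ranger ARC, Cell Ranger and FastQC. The sources used here give no order, no versions and no filter on nuclei. The authors deposited raw UMI counts per gene and nucleus (53707675 and 35471291 UMIs in 3455 Sun1_WT and 2404 Sun1_KO nuclei) and raw counts per peak and nucleus, with peaks called per library (127147 and 134365 peaks). About 75.5% and 75.0% of the nonzero peak counts were even, so they are not independent molecules. The authors' deposited comparison table gives, per the file headers, a mean normalised signal, a log2 fold change with its standard error, a Wald statistic (score), and a p-value with its adjusted p-value, made with DESeq2.

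Of these nuclei, 3345 and 2172 had 500 or more UMIs, 300 or more genes and no more than 20% of UMIs from mitochondrial genes, and only these entered the work. A nucleus entered a gate when it held at least 5 gate-marker UMIs and at least 70% of them came from 1 list. Mixed nuclei (126 and 82) were left out in place of a doublet caller. UMIs were summed per gate and library and scaled to the gate's total, mitochondrial genes excepted. Log2 ratios used a pseudocount of 0.5, with exact conditional binomial intervals; a gene was compared with at least 50 summed UMIs and counted as higher or lower at 1.5-fold. PCR duplicates and free RNA are not covered by the intervals. Overlapping peaks were merged, giving 113803 regions called in both libraries. Clusters came from scanpy 1.11.5 (2000 variable genes, 30 components, Leiden resolution 1) and TMM factors from edgeR 4.0.16, in Python 3.11.15 and R 4.3.3. The direction of the ratio and the coverage of its interval were checked on simulated pairs of libraries. The members and gene lists were chosen with earlier results of these data known. Beyond the members and Sun1, genes were named as up to 3 per list, gate and direction with the interval bound farthest from no difference, and the 3 genes most like each member over clusters, by Pearson correlation of log2 levels plus 10. Regions were named at the gene start, and as up to 2 with the largest ratio between gates or between genotypes.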

Additional observations from a re-analysis of the deposited data

Results flagged for a closer look

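Pdcd1lg2 RNA differed in sign between gates. Its log2 ratio, Sun1_KO over Sun1_WT, was 1.40 in the tumour gate (28 and 45 UMIs) and 0.77 in the myeloid gate (101 and 138 UMIs), but -0.46 in the lymphoid gate (33 and 22 UMIs). The lymphoid interval runs from -1.32 to 0.35. The difference between gates was not tested.

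Ceacam1 accessibility also differed in sign, at -0.69 in the tumour gate and 0.38 in the myeloid gate (2434 and 1153 counts against 167 and 189). This difference was not tested either.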

How the results depend on the processing

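No paired analysis was possible because each genotype gave 1 library of each kind, and leaving out a replicate could not be done for the same reason. Ceacam1 RNA in the tumour gate was lower in Sun1_KO under every alternative run, between -2.59 and -1.22, and its accessibility between -0.79 and -0.50. The direction of Pdcd1lg2 in the tumour gate reversed to -0.21 without nuclei with Xist and to -0.98 in nuclei with no UMI of other types (2 and 0 UMIs), and that of Vsir to -2.36 (6 and 0 UMIs). The median RNA ratio of the members in the tumour gate was 0.25 with TMM, 0.26 with median-ratio scaling, 0.30 without nuclei with Xist and -0.19 in nuclei with no UMI of other types, and the median accessibility ratio was -0.087 with median-ratio scaling. Members counted as higher in the tumour gate numbered 0 when thinned to 1000 UMIs, 0 with no UMI of other types and 1 without Xist, while the lower ones numbered 3 with TMM and 3 with median-ratio scaling (Cd47, Pvr and Ceacam1). In the myeloid gate the higher ones numbered 0 at a purity of 90%, 0 with gates by cluster and 0 when thinned, and the lower ones 1 at a purity of 50% and 1 at 90% (Pvr, -0.59 and -0.79). In the lymphoid gate 1 was higher with no UMI of other types (Cd274, 0.61); 2 were lower at a purity of 50% (Pdcd1lg2, -0.64, and Lgals9, -0.73), and 1 at 90%, 1 with TMM, 1 with median-ratio scaling, 1 with mitochondrial genes in the total (Lgals9, -0.89 to -0.62) and 1 with a minimum of 20 UMIs (Pvr, -0.59). Shares of all genes at 1.5-fold are given above only for the gates as first set and for the tumour gate without nuclei with Xist. The counts under the other settings have no such share beside them and are not read as results about the members. The cause of these changes was not tested. TMM and median-ratio scaling lower all tumour-gate ratios by 0.24. Thinning leaves few UMIs (42 of Ceacam1 in both libraries), so its values are imprecise.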
